A study of Homo sapiens with 12 samples.

Results

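Prostaglandin synthesis genes were followed in RNA-seq of 2 triple-negative breast cancer cell lines with and without SMARCA4 KO. The 7 genes sought cover arachidonate release (PLA2G4A), the cyclooxygenases (PTGS1 and PTGS2), the synthases of prostaglandin E2 (PTGES, PTGES2 and PTGES3) and a prostaglandin reductase (PTGR1). They were matched by symbol, and 5 of the 7 were found among the 11529 genes of the expression table. PTGS2 and PLA2G4A were not analysed here. PTGS1 was selected on its FPKM values, which were lower in the KO samples of MDA-MB-468, so its values in that comparison, and in every contrast that holds those samples or their controls, are descriptions without a test. The other genes were listed by function, with earlier results of these data known.

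The study asked how gene expression responds when SMARCA4, the ATPase of the SWI/SNF chromatin remodeling complex, is inactivated. MDA-MB-468 is a basal-like line and MDA-MB-231 a mesenchymal-like line, both of human breast cancer. Each line had 3 samples labelled WT, with the genotype wild type and the description Control, and 3 samples labelled KO, which makes 12 samples in 4 groups. The KO cells were polyclonal pools: cells received a lentiCRISPR-v2 vector that carried Cas9 and a guide against SMARCA4, and were kept in puromycin for selection, so cells with different edits, or with an intact copy, could share a pool. The labels do not say whether the WT samples carried a control vector, nor whether the replicates came from separate cultures, so p-values measure the spread between these samples, which may be technical. Values are FPKM, fragments scaled to the length of the gene and to the mapped total of the sample, which allow levels to be compared between genes. Fold changes are differences of mean log2(FPKM + 1), a scale that understates the change of genes near 0. The depth of the samples is unknown.

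Prostaglandins are lipid mediators made from arachidonic acid. A phospholipase A2 frees the acid from membrane phospholipids, a cyclooxygenase turns it into prostaglandin H2, and terminal synthases turn that into prostaglandins D2, E2, F2α and I2 or into thromboxane. In breast and other carcinomas the pathway is best known for prostaglandin E2, which acts on neighbouring tumor, stromal and immune cells. Oxidation by a dehydrogenase and reduction by prostaglandin reductases end the signal.

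The guide that made the KO pools is shown because every comparison rests on it. Its 20 bases occurred at a single place in SMARCA4, chr19:11095933-11095952 on the plus strand of GRCh37, and the last 4 of them lay within exon 3 of the MANE transcript, the reference transcript of the gene. The protocol gives the target as exon 4 of a RefSeq transcript, whose exons were not compared here. Capitals mark the PAM, the bases next to the target that Cas9 needs.
SMARCA4 guide: atggtccctctcgcagcccaTGG

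The 250 bases before the start of PTGS1 are shown because its level differed most among the 5 genes. They come from RefSeq and were placed by an exact match at chr9:125132562-125132811 on the plus strand of GRCh37. Capitals mark a GC box, the letters GGGCGG.
PTGS1 upstream: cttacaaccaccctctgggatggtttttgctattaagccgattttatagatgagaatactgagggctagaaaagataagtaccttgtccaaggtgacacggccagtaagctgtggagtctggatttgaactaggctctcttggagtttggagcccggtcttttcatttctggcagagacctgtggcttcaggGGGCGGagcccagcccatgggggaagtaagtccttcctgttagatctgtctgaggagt

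Both strands of these windows were searched for the GC box (GGGCGG), for the core of the TATA box (spelled TATAAA) and for the CCAAT box (named by its letters). The PTGS1 window held 1 GC box and no CCAAT box, and was 49.6% G and C. It held 1 match of the letters TATAAA, on the minus strand and toward the end of the window away from the start. The windows of all 5 genes were in RefSeq. PTGES had 2 GC boxes and 61.2% G and C, PTGES2 had 4 and 72.4%, PTGES3 had 4 and 68.8%, and PTGR1 had 0 and 59.6%, and none of these held a TATA or CCAAT box. Among 27305 such windows of annotated genes, 42.3% held a GC box, 11.1% a TATA box and 33% a CCAAT box, and the median share of G and C was 58%. PTGS1 thus had the lowest share of G and C among the 5. Its TATAAA match lay on the strand opposite to the gene, and whether it acts as a TATA box was not tested.

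In the GENCODE annotation (release 44 on GRCh37), PTGS1 lies at chr9:125132809-125157982 on the plus strand, with 11 exons in its MANE transcript. PTGES lies at chr9:132500610-132515321, PTGES2 at chr9:130882972-130890741 and PTGR1 at chr9:114312002-114362173, all on the minus strand. PTGES3 is on chr12:57057125-57082192, also on the minus strand. The 4 genes on chromosome 9 thus lie within 18.2 Mb of each other without being neighbours. PTGR1 overlaps ZNF483 on the other strand, and PTGS1 overlaps a lncRNA on its own strand, neither of them in the expression table.

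The targeted gene was checked first. In MDA-MB-468 the FPKM of SMARCA4 was 96.9, 97.4 and 101.3 in the WT samples and 39.7, 43.5 and 47.7 in the KO samples. In MDA-MB-231 it was 67.5, 71.5 and 67.0 in WT and 21.0, 23.9 and 22.6 in KO. SMARCA4 RNA was lower in every KO sample, at 44.3% of the WT mean in MDA-MB-468 (log2 fold change -1.16, SE 0.0751, limma adjusted p = 0.0137) and at 32.7% in MDA-MB-231 (-1.57, SE 0.0611, adjusted p = 0.00143). The MDA-MB-468 call was lost without WT replicate 2 (adjusted p = 0.0696), WT replicate 3 (0.0565) or KO replicate 2 (0.0748), while the log2 fold change stayed near -1.16. It was also lost with blocks by the number after the letter p in the sample descriptions (limma adjusted p = 0.140). WT replicate 3 and KO replicate 1 share no such number and were put in 1 block. RNA that remains after editing does not measure the protein.

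The labelled cell lines were checked against their markers. The 7 epithelial markers (EPCAM, CDH1, KRT5, KRT6B, KRT8, KRT18 and EGFR) summed to between 3924 and 5383 FPKM in MDA-MB-468 samples. They summed to between 596 and 965 in MDA-MB-231 samples, where KRT6B was listed at 0 in every sample. KRT8 and KRT18 had the largest means of the 7 in MDA-MB-468 WT, at 1604 and 1102 FPKM. The 5 mesenchymal markers (VIM, AXL, CAV1, MSN and FN1) summed to between 1780.2 and 2471 in MDA-MB-231 and to between 122 and 176 in MDA-MB-468. The summed epithelial markers were thus higher in MDA-MB-468 and the summed mesenchymal markers in MDA-MB-231. Of the markers of other cells, CD14 of the 5 leukocyte markers and ERBB2 of the 3 hormone receptor and HER2 markers were in the table, and none of the 6 fibroblast, 5 platelet and 4 endothelial markers was. Samples of a group were alike, with a lowest correlation of 0.989 across genes.

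PTGS1 encodes cyclooxygenase-1, the form of the enzyme that many tissues make at a steady level. In MDA-MB-468 its FPKM was 15.3, 13.1 and 11.4 in the WT samples (13.3 ± 1.95, SD, n = 3) and 5.13, 2.42 and 1.94 in the KO samples (3.16 ± 1.72, n = 3). The highest KO sample thus lay below the lowest WT sample, and the KO mean was 23.9% of the WT mean. The log2 fold change was -1.84 (SE 0.289, 95% interval -2.56 to -1.13), given as a description because this difference put the gene on the list. Between samples of the same number the difference was -1.41, -2.04 and -2.08 on the log2 scale, so it was smallest in the pair of replicate 1, whose KO sample had the most PTGS1 RNA. Leaving out any single sample gave -2.16 to -1.63.

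In MDA-MB-231, whose samples played no part in the choice, PTGS1 stood near the floor of the table. Its FPKM was 0.70, 0.99 and 0.95 in the WT samples (0.88 ± 0.157, n = 3) and 0.69, 0.79 and 0.38 in the KO samples (0.62 ± 0.214, n = 3). WT and KO samples overlapped. The log2 fold change of -0.22 (SE 0.118, 95% interval -0.51 to 0.07) did not pass the test (limma adjusted p = 0.264). The mean over the 6 MDA-MB-231 samples was 0.75 FPKM, with an SD of 0.220, under the limits of 1 for both that the authors set for keeping a gene, so PTGS1 was in the table through its level in MDA-MB-468.

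The KO change of PTGS1 in MDA-MB-468 minus that in the other line was -1.62 on the log2 scale (SE 0.313, no test). Every MDA-MB-468 KO sample, at 1.94 FPKM or more, still lay above every MDA-MB-231 sample, at 0.99 or less. In the WT samples alone, MDA-MB-468 had 1506% of the MDA-MB-231 mean (log2 difference 2.92, SE 0.221, no test).

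Beside the PTGS1 difference in MDA-MB-468, the summed epithelial markers were 3924 to 4137 FPKM in WT and 4574 to 5383 in KO. The summed mesenchymal markers were 122 to 140.1 in WT and 165 to 176 in KO. CD14 was at 46.1 to 52.9 in WT and 20.8 to 63.2 in KO. The markers did not move together. Of the 7 epithelial markers, KRT5, KRT6B, KRT8, KRT18 and EGFR had higher means in KO. EPCAM was at 297 to 307 in WT and 275 to 291 in KO, and CDH1 averaged 44.5 and 37.9. Of the mesenchymal markers, CAV1 was at 15.0 to 22.3 in WT and 33.9 to 70.2 in KO, VIM was at 3.96 or less and AXL at 0.11 or less in every sample, MSN averaged 95.4 and 96.7, and FN1 averaged 15.2 and 13.9. Their part in the PTGS1 difference was not tested. In bulk RNA, fewer cells with PTGS1 RNA and less PTGS1 RNA per cell cannot be told apart.

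**Figure D1:**
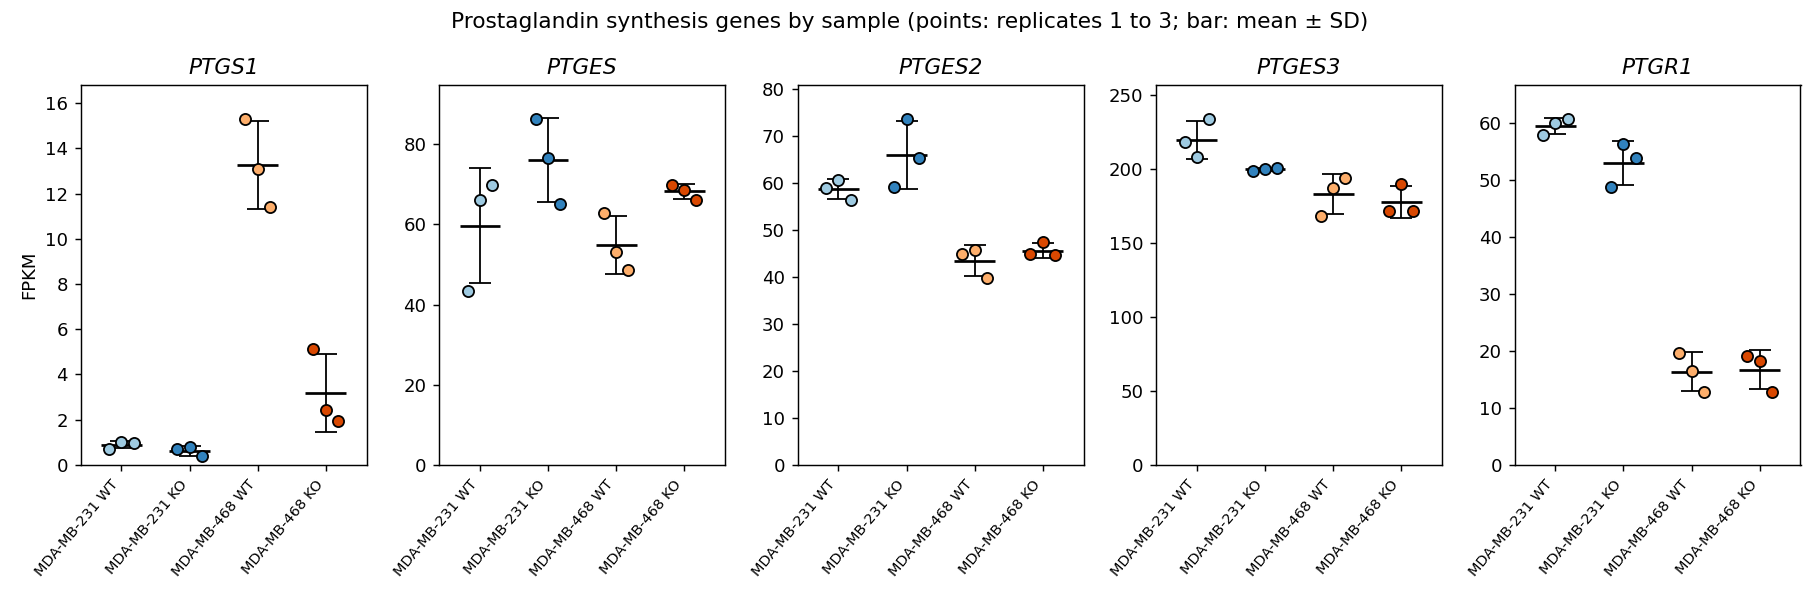
FPKM of PTGS1, PTGES, PTGES2, PTGES3 and PTGR1 (each panel with its own vertical axis from 0) in the WT and KO samples of both lines; points are the 3 samples of a group, the horizontal line their mean and the bar ± SD. PTGS1 is at 11.4 FPKM or more in MDA-MB-468 WT, at 5.13 or less in MDA-MB-468 KO and at 0.99 or less in MDA-MB-231, where WT and KO overlap, while PTGR1 separates the lines and not WT from KO in MDA-MB-468.

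The terminal synthases of prostaglandin E2 were not called in either line. To be called, a gene needed a limma adjusted p under 0.05 with a log2 fold change beyond 0.5 in either direction. In MDA-MB-468, 0 of the 4 genes tested (PTGES, PTGES2, PTGES3 and PTGR1) were called, beside 2.14% of all genes, and 1 had an unadjusted p under 0.05, as had 25.1% of all genes. In MDA-MB-231, 0 of 5 were called, beside 3.7% of all genes, and again 1 had an unadjusted p under 0.05, as had 31.2% of all genes. The difference of the KO change between the lines, called at an adjusted p under 0.05, was called for 0 of 4 genes, beside 14.7% of all genes, and none had an unadjusted p under 0.05, as had 31.5% of all genes.

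PTGES encodes the inducible microsomal synthase that is usually coupled with cyclooxygenase-2. In MDA-MB-468 its FPKM was 63.0, 53.1 and 48.7 in WT and 69.8, 68.7 and 66.2 in KO, so every KO sample was above every WT sample. The KO mean was 124% of the WT mean, and the log2 fold change of 0.32 (SE 0.0988, 95% interval 0.07 to 0.56) had an unadjusted p of 0.0201 and did not pass the adjustment (limma adjusted p = 0.128). In MDA-MB-231 it was 43.3, 66.1 and 69.8 in WT and 86.2, 76.6 and 65.2 in KO, with a log2 fold change of 0.36 (SE 0.206, 95% interval -0.15 to 0.87, adjusted p = 0.288). Replicate 1 of WT was the low sample there, and without it the log2 fold change was 0.15. The change of PTGES differed between the lines by -0.05 (SE 0.232, adjusted p = 0.915).

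PTGES2, a membrane-associated synthase of prostaglandin E2, ranged from 39.8 to 45.8 FPKM in WT and from 44.7 to 47.5 in KO samples of MDA-MB-468, and the groups overlapped (log2 fold change 0.07, SE 0.0685, limma adjusted p = 0.562). In MDA-MB-231 it was 56.5 to 60.8 in WT and 59.2 to 73.6 in KO (0.16, SE 0.0873, 95% interval -0.06 to 0.38, adjusted p = 0.270). PTGES3, better known as p23, a cochaperone of HSP90 that was also described as a cytosolic prostaglandin E synthase, was the most abundant of the 5 in every sample. It read 168, 187 and 194 FPKM in MDA-MB-468 WT and 172, 189.9 and 171 in KO (log2 fold change -0.04, SE 0.0757, adjusted p = 0.761). In MDA-MB-231 it read 218, 208 and 233 in WT and 199, 199.7 and 201 in KO. All 3 KO samples were lower there, at 90.9% of the WT mean, and the log2 fold change of -0.14 (SE 0.0550, 95% interval -0.27 to 0.00, adjusted p = 0.161) did not pass.

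PTGR1 reduces oxidised prostaglandins and also acts on leukotriene B4, which inactivates them. In MDA-MB-468 its FPKM was 19.6, 16.4 and 12.8 in WT and 19.02, 18.2 and 12.9 in KO, over much the same range in both groups (log2 fold change 0.03, SE 0.202, 95% interval -0.47 to 0.54, limma adjusted p = 0.942). In MDA-MB-231 it was 57.8, 59.9 and 60.6 in WT and 48.7, 56.3 and 53.8 in KO. All 3 KO samples were lower, at 89.0% of the WT mean, and the log2 fold change of -0.17 (SE 0.0651, 95% interval -0.33 to -0.01) had an unadjusted p of 0.0437 and an adjusted p of 0.148. The change differed between the lines by 0.20 (SE 0.216, 95% interval -0.27 to 0.67, adjusted p = 0.558).

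Between the WT samples of the lines, 1 of the 4 genes tested was called, beside 64.2% of all genes (31.4% lower in MDA-MB-468 and 32.8% higher). PTGR1 was lower in MDA-MB-468, at 27.4% of its mean in MDA-MB-231 (log2 difference -1.82, SE 0.153, limma adjusted p = 2.32e-07). PTGES2 and PTGES3 passed the adjusted p and not the fold limit. PTGES2 was at 74.0% (-0.43, SE 0.0844, adjusted p = 0.000466) and PTGES3 at 83.3% (-0.26, SE 0.0732, adjusted p = 0.00516), with every MDA-MB-468 WT sample below every MDA-MB-231 WT sample. PTGES overlapped between the lines (-0.10, SE 0.164, 95% interval -0.46 to 0.26, adjusted p = 0.587). PTGS1 was the gene of the 5 with the higher mean in MDA-MB-468.

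**Figure D2:**
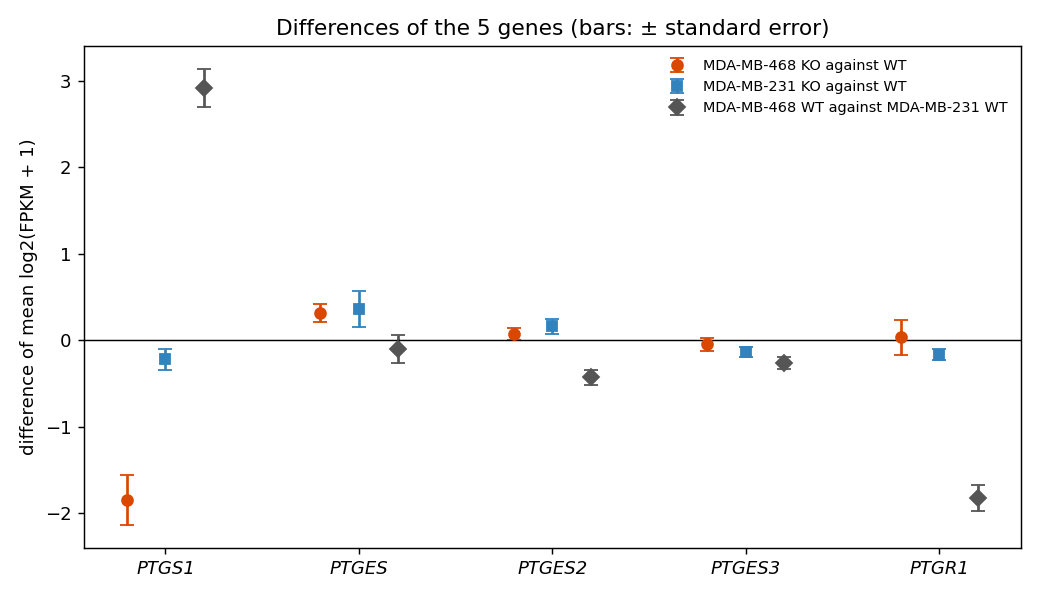
Differences of mean log2(FPKM + 1) (vertical axis) of the 5 genes (horizontal axis): KO against WT in MDA-MB-468 (circles), KO against WT in MDA-MB-231 (squares) and MDA-MB-468 WT against MDA-MB-231 WT (diamonds); bars are ± SE, from 3 samples a group. PTGS1 lies at -1.84 for MDA-MB-468 KO and at 2.92 between the WT groups, and PTGR1 at -1.82 between the WT groups, while the other KO differences lie between -0.22 and 0.36.

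Ordered by level, PTGES3 came first and PTGS1 last in all 4 groups. In MDA-MB-468 WT the mean FPKM was 183 ± 13.3 (SD, n = 3) for PTGES3, 54.9 ± 7.29 for PTGES, 43.5 ± 3.25 for PTGES2, 16.3 ± 3.41 for PTGR1 and 13.3 ± 1.95 for PTGS1. The samples of PTGR1 and PTGS1 overlapped, and other neighbours in that order did not. In MDA-MB-468 KO the order was the same and no neighbours overlapped, and PTGR1 (16.7 ± 3.36) stood at 5.28 times PTGS1 (3.16 ± 1.72).

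In MDA-MB-231 WT the order was PTGES3 (219.8 ± 12.9), PTGES (59.7 ± 14.4), PTGR1 (59.4 ± 1.44), PTGES2 (58.8 ± 2.18) and PTGS1 (0.88 ± 0.157). PTGES, PTGR1 and PTGES2 overlapped, and PTGES2 stood at 66.8 times PTGS1. In MDA-MB-231 KO the order was PTGES3 (199.8 ± 1.09), PTGES (76.0 ± 10.5), PTGES2 (66.1 ± 7.25), PTGR1 (52.9 ± 3.90) and PTGS1 (0.62 ± 0.214), with PTGES and PTGES2 overlapping. In each line the synthases of prostaglandin E2 thus stood above the measured cyclooxygenase in every sample.

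The genes most like PTGS1 across the 12 samples, by Pearson's r of their log2(FPKM + 1) values, were CRISP3 (r = 0.987), SLC35C1 (0.985), XBP1 (0.984), LTBP1 (0.983) and CHPF (0.980). These r describe likeness only, since the samples fall into 2 cell lines that set most of the spread. CRISP3, a secreted cysteine-rich protein, had a mean log2 level of 5.94 in MDA-MB-468 WT and 2.93 in KO and was listed at 0 in every MDA-MB-231 sample. XBP1, a transcription factor of the unfolded protein response, had mean log2 levels of 8.06 in MDA-MB-468 WT and 6.83 in KO, and of 5.41 and 5.37 in MDA-MB-231 WT and KO. SLC35C1, the Golgi transporter of GDP-fucose, went from 4.36 to 3.78, LTBP1, a binding protein of latent TGF-β, from 4.13 to 3.28, and CHPF, a chondroitin synthase subunit, from 4.96 to 4.68 on the same scale in MDA-MB-468. PTGES, PTGES2, PTGES3 and PTGR1 were not among these genes.

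The genes around PTGS1 were looked at after its own values had been seen. Within 1 Mb of its start, 9 other genes were in the table, and their log2 fold changes in MDA-MB-468 KO ran from -0.18 (MRRF) to 0.12 (NDUFA8), with a median of -0.06. Of the 9, 7 were lower and 2 higher on average, and TTLL11 and MRRF had all KO samples below all WT samples. The shares of all genes that were lower, or separated in this way, are not given here. A change of the region as a whole was not tested. Over all genes in this comparison, the median log2 fold change was 0.02, and 25.1% had an unadjusted limma p under 0.05. In MDA-MB-231 the 9 ran from -0.40 (TTLL11) to 0.29 (STRBP).

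A list of 67 further genes of eicosanoid metabolism was read in the same comparisons, and 35 of them were in the table; the other genes were not analysed here. In MDA-MB-468 KO, 6 of 35 (17.1%) were called, 4 higher and 2 lower, beside 2.14% of all genes (1.33% higher and 0.815% lower). The list's median log2 fold change was -0.13 and that of all genes 0.02. The list was written with earlier results of these data known, so its shares beside those of all genes are descriptions. The count of 6 depended on single samples: it was 0 without WT replicate 1, WT replicate 2, KO replicate 2 or KO replicate 3, 1 without WT replicate 3 and 9 without KO replicate 1, while the count over all genes, 247, became 27, 0, 0, 5, 12 and 474. Of the 6 genes, ACSL4 was called without WT replicate 3 and without KO replicate 1, and the others without KO replicate 1 alone. In MDA-MB-231 KO, 2 of 35 (5.71%) were called, both lower, beside 3.7% of all genes (2.39% higher and 1.31% lower), with a median of -0.01 for the list and -0.01 for all genes.

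Among the genes of arachidonate release and reacylation, 1 of 13 was called in each line, and it was ACSL4, a synthetase that activates arachidonate for return to phospholipids. It rose in MDA-MB-468, from between 2.57 and 3.84 FPKM in WT samples to between 7.61 and 8.48 in KO samples (log2 fold change 1.17, SE 0.124, limma adjusted p = 0.0183). It fell in MDA-MB-231, from between 30.0 and 32.2 to between 18.9 and 21.8 (-0.58, SE 0.0664, adjusted p = 0.0114). No WT sample overlapped a KO sample in either line, and the difference of the changes was 1.76 (adjusted p = 5.91e-05). ACSL4 levels were thus closer between the KO groups than between the WT groups, where MDA-MB-468 had 9.81% of the MDA-MB-231 level. ACSL4 is in a pathway list that the study drew from these samples, so that list is no independent evidence.

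PLA2G6, a calcium-independent phospholipase A2, had a log2 fold change of -0.29 in MDA-MB-468 (limma adjusted p = 0.0916) and 0.55 in MDA-MB-231 (adjusted p = 0.0544). FAAH, the hydrolase that frees arachidonate from anandamide, had -0.13 (adjusted p = 0.252) and 0.60 (adjusted p = 0.05005). Neither gene was called within a line, and both passed the test of the difference between the lines (PLA2G6 -0.84, adjusted p = 0.00668, and FAAH -0.73, adjusted p = 0.0131). FAAH was also the gene of this group with the largest WT difference upward, at 21.5 to 24.1 FPKM in MDA-MB-468 and 0.79 to 1.29 in MDA-MB-231. That log2 difference of 3.56 is given without a test. Over MDA-MB-231 its SD was 0.654, under the authors' limit of 1, so FAAH was in the table through its level in MDA-MB-468. The MDA-MB-231 KO samples were at 1.63 to 2.51 FPKM, so the KO change of FAAH there rests on values near the floor.

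Among the other terminal prostanoid synthases, 2 of 7 were called in MDA-MB-468 KO, both lower, and 0 of 7 were called in MDA-MB-231. At an unadjusted p under 0.05, with both directions counted, the counts were 6 and 0, beside 25.1% and 31.2% of all genes. AKR1C3, an aldo-keto reductase that makes prostaglandin F2α and also acts on steroids, went from between 4.36 and 5.03 FPKM in MDA-MB-468 WT to between 0.42 and 1.57 in KO (log2 fold change -1.59, SE 0.215, limma adjusted p = 0.0300). Its call was lost with samples paired by number (adjusted p = 0.0569) and at a pseudocount of 0.1 (log2 fold change -2.33, adjusted p = 0.0517). GSTM3, a glutathione transferase, went from between 19.8 and 24.4 to between 11.5 and 12.5 (-0.78, SE 0.0882, adjusted p = 0.0199). Both have close paralogs, and reads shared with them may be split in ways that the values do not show. AKR1B1, aldose reductase, which can also make prostaglandin F2α, averaged 286 ± 86.9 FPKM in MDA-MB-468 WT and 534 ± 16.2 in KO, with all KO samples higher, and did not pass (0.94, adjusted p = 0.0804). TBXAS1, thromboxane A synthase, averaged 1.75 and 0.70 FPKM and did not pass either (-0.73, adjusted p = 0.0927).

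Of the 4 genes of transport and breakdown, ABCC4, an exporter of prostaglandins, was called in MDA-MB-468, where it rose from between 1.92 and 2.55 FPKM in WT to between 4.62 and 5.71 in KO (log2 fold change 0.91, SE 0.101, limma adjusted p = 0.0199). In MDA-MB-231 it ranged from 7.85 to 8.14 FPKM in WT and from 8.16 to 8.95 in KO, and was not called. The difference of the changes was 0.83 (adjusted p = 0.00163), so the gap between the lines was narrower in KO. Every MDA-MB-468 sample still lay below every MDA-MB-231 sample.

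Of the 11 receptors and related genes, 2 were in the table. PPARG, a nuclear receptor that binds prostaglandin J2 derivatives and drives fat cell genes, moved in opposite directions. It rose in MDA-MB-468 from 14.4 ± 1.20 to 21.7 ± 1.95 FPKM (n = 3 each; log2 fold change 0.56, SE 0.0909, limma adjusted p = 0.0385) and fell in MDA-MB-231 from 17.1 ± 0.42 to 11.3 ± 0.755 (-0.56, SE 0.0589, adjusted p = 0.00982). The difference of the changes was 1.12 (adjusted p = 0.000318), with all KO samples above WT in one line and below it in the other. The study drew PPARG, like ACSL4, into pathway lists from these samples. PTGFRN, a membrane partner that restrains the prostaglandin F receptor, averaged 46.9 FPKM in MDA-MB-468 WT and 36.7 in KO (-0.34, adjusted p = 0.0545).

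Of the 9 genes of the lipoxygenase, leukotriene and epoxygenase arms, 1 was called in MDA-MB-468 while 0 were called in MDA-MB-231. There MGST1, a microsomal glutathione transferase (-0.45, 73.1% of the WT mean), passed the adjusted p (0.0145, limma), with all KO samples lower, and missed the fold limit. CYP2J2, an epoxygenase of arachidonate, did the same (-0.37, 41.2%, adjusted p = 0.0145), at 0.58 to 0.67 FPKM in WT and 0.22 to 0.30 in KO. CYP2J2 averaged 0.44 FPKM over MDA-MB-231, under the authors' limit of 1, so it was in the table through MDA-MB-468. Its change in MDA-MB-231 thus rests on values near the floor. GGT5, a peptidase that converts leukotriene C4 to D4, rose in MDA-MB-468 from between 5.03 and 5.34 FPKM to between 7.64 and 10.7 (log2 fold change 0.68, SE 0.114, limma adjusted p = 0.0397). Its call was lost with samples paired by number (adjusted p = 0.0552). EPHX1, microsomal epoxide hydrolase, had -0.55 in MDA-MB-468 (adjusted p = 0.0586) and 0.18 in MDA-MB-231 (adjusted p = 0.420).

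The KO change differed between the lines for 12 of the 35 genes (34.3%), 5 upward and 7 downward in MDA-MB-468 relative to MDA-MB-231, beside 14.7% of all genes (7.91% upward and 6.83% downward). By group these were 3 of 13 genes of release and reacylation, 4 of 7 other synthases, 1 of 4 of transport and breakdown, 2 of 2 receptors and related genes and 2 of 9 of the lipoxygenase, leukotriene and epoxygenase arms. As the list was written with earlier results of these data known, these shares are descriptions. Leaving out single samples gave 8 (without MDA-MB-231 KO replicate 2) to 16 (without MDA-MB-468 KO replicate 1). Some genes were under the authors' limit of 1 for mean or SD within a line. Without the 3 that averaged under it in a line, PTGFRN among them, 11 of 32 differed. Without the 5 with an SD under it in both lines, PLA2G6 and TBXAS1 among them, 10 of 30 did. Without all 14 with a mean or SD under it in a line, 7 of 21 did.

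**Figure D3:**
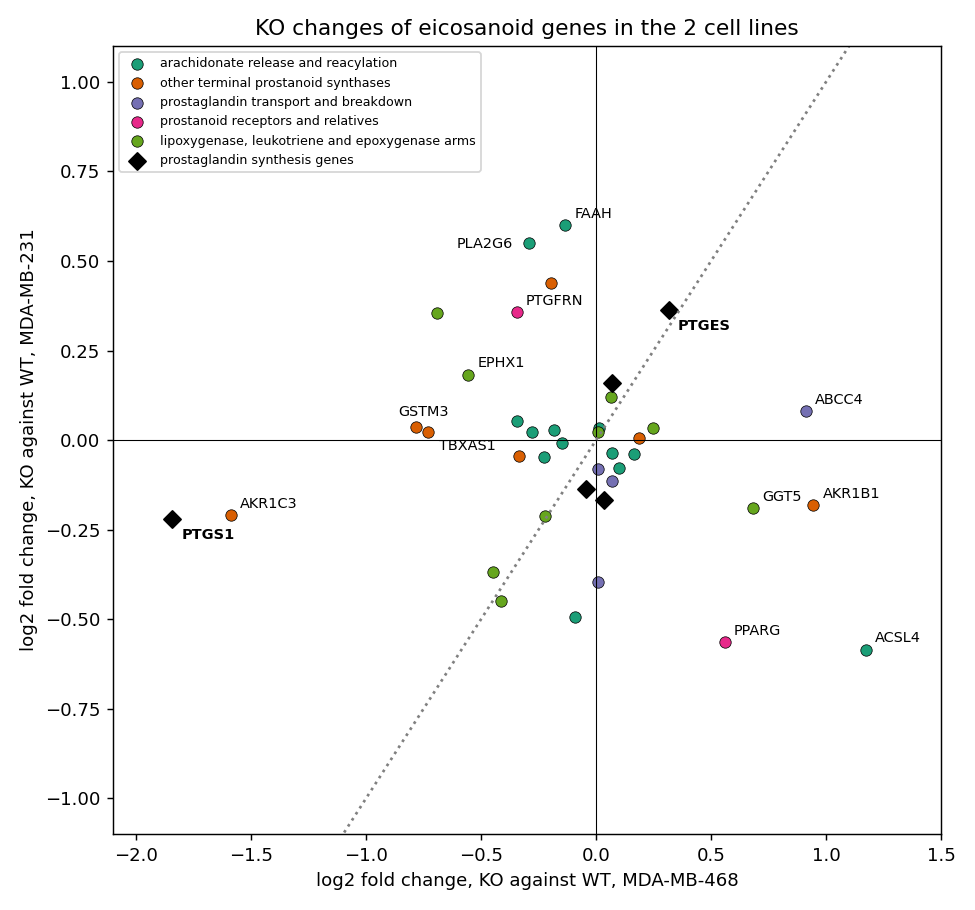
Log2 fold change of KO against WT in MDA-MB-468 (horizontal axis) and MDA-MB-231 (vertical axis, on a wider scale) for the 35 genes of eicosanoid metabolism, colored by role, and for the 5 prostaglandin synthesis genes (diamonds); the dotted line marks equal change, and the names are those of the 12 genes whose change differed between the lines, with PTGS1 and PTGES. ACSL4 and PPARG lie at lower right, up in MDA-MB-468 and down in MDA-MB-231, while PTGES lies near the line of equal change.

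In the WT samples, 24 of the 35 genes (68.6%) differed between the lines, 11 higher and 13 lower in MDA-MB-468, beside 64.2% of all genes. The authors' limit of 1 bears on this count. PTGFRN and CYP2J2 in MDA-MB-231 and GSTM2 in MDA-MB-468 averaged under 1 FPKM over a line, so they were in the table through the line where they are high. Their differences are given without a test, though they count among the 24. The same holds for FAAH and PLA2G4C, which had an SD under 1 in MDA-MB-231. For 5 genes, PLA2G6 and TBXAS1 among them, the SD was under 1 within each line. Leaving out PTGFRN, CYP2J2 and GSTM2 gave 21 of 32, and leaving out the 5 gave 21 of 30. Without all 14 with a mean or SD under 1 in a line, 13 of 21 differed. All 5 of the called synthases, of 7, were lower in MDA-MB-468, beside 31.4% of all genes, and the untested GSTM2 is counted among the 5. AKR1C3 was at 13.4% of the MDA-MB-231 mean (log2 difference -2.66, limma adjusted p = 1.41e-08). GSTM2, a further glutathione transferase with close paralogs, was at 3.66% (-2.48). Of the 13 genes of release and reacylation, 5 were higher, FAAH and PLA2G4C among them, and 5 lower, beside 32.8% and 31.4% of all genes. PLA2G4C, a cytosolic phospholipase A2, was at 434% (1.58, without a test), and MBOAT7, which returns arachidonate to phosphatidylinositol, at 29.5% (-1.74, adjusted p = 4.24e-10).

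In the same comparison, PTGFRN showed the largest difference of the list, at 46.9 ± 2.79 FPKM in MDA-MB-468 against 0.457 ± 0.245 in MDA-MB-231 (SD, n = 3 each; log2 difference 5.05), and ABCC4 was at 28.4% (-1.46, limma adjusted p = 7.19e-09). Of the 9 genes of the lipoxygenase, leukotriene and epoxygenase arms, 5 were higher in MDA-MB-468, the untested CYP2J2 among them, and 2 lower. CYP2J2 was at 1054% (2.22) and EPHX1 at 318% (1.66, adjusted p = 1.20e-07). LTA4H, which makes leukotriene B4, was at 59.0% (-0.74, adjusted p = 1.86e-06) and GGT5 at 42.3% (-1.08, adjusted p = 2.29e-05).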

How the data were processed

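RNA-seq of 12 samples in 4 groups was used, 3 samples each of WT and KO per cell line. Libraries were made from mRNA with a stranded kit. Reads had been trimmed (Trimmomatic), mapped to hg19 (STAR) and turned into FPKM (RSEM) by the authors, who dropped genes whose mean or SD of FPKM was below 1. What they deposited is log2(FPKM + 1). FPKM was recovered from these, and the smallest mean was 1.07 and the smallest SD 1.00. Whether the counting used strand is not given in the sources used here. The filter took all samples together, so a gene could pass through 1 cell line. The table gave no counts, so depth is unknown and no interval from counts was computed. In 18 rows a date stood for the symbol, which were tested and not named.

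The log2 values of 11529 genes were fitted with limma 3.58.1 in R 4.3.3, without further normalization, for each line alone (KO against WT), and in 1 fit of 4 groups for the difference of the KO changes and for WT against WT. P-values were adjusted by Benjamini-Hochberg over all genes. Calls needed an adjusted p under 0.05 and, except for the difference of changes, an absolute log2 fold change over 0.5. PTGS1 has no p where MDA-MB-468 samples entered. The fit was tested on simulated data. Alternatives were a pseudocount of 0.1, a filter at a mean log2 value of 2, scaling to the 75th percentile, quantile normalization, an intensity trend, other sample sets, blocks by replicate number, a fold limit of 1 and leaving out each sample.

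Replicate numbers come from the sample titles. In MDA-MB-468, samples of the same number deviated together (r across genes of 0.254, 0.161 and 0.119), so blocked values are given where they change a call. This pairing was not clear for all samples, as WT replicate 3 had an r of 0.131 with KO replicate 2. The numbers after the letter p in the descriptions pair WT replicate 1 of this line with KO replicate 2, and WT replicate 2 with KO replicate 3. They leave WT replicate 3 and KO replicate 1 without a match, and these were joined in 1 block. In MDA-MB-231, samples of the same replicate number did not deviate together (-0.05, 0.07 and -0.11).

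The members and lists were chosen with earlier results of these data known. The genes named are the members, the called genes of the wider list, in the WT comparison the 2 with the largest difference per direction and role, and the 5 most like PTGS1; PLA2G6, FAAH, AKR1B1, TBXAS1, PTGFRN and EPHX1 come from the difference between the lines. Positions come from GENCODE release 44 and sequences from GRCh37 and RefSeq. A further gene of the mesenchymal marker list is not reported here and is left out of its sums.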

Additional observations from a re-analysis of the deposited data

Results flagged for a closer look

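The KO change was compared between the cell lines for 40 genes (SMARCA4, the 4 tested prostaglandin synthesis genes and the 35 further genes), and 13 of them differed in the test of the difference itself (limma, adjusted over all genes). Values are the log2 fold change in MDA-MB-468 minus that in MDA-MB-231. SMARCA4 itself differed by 0.41 (adjusted p = 0.0270), as its RNA was lower by less in MDA-MB-468.

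Genes that differed upward were ACSL4 by 1.76 (adjusted p = 5.91e-05), AKR1B1 by 1.13 (0.0139), PPARG by 1.12 (0.000318), GGT5 by 0.87 (0.0198) and ABCC4 by 0.83 (0.00163). Of these, ACSL4 and PPARG had opposite calls in the lines. Genes that differed downward were AKR1C3 by -1.38 (0.00385), PLA2G6 by -0.84 (0.00668), GSTM3 by -0.82 (0.00766), TBXAS1 by -0.75 (0.0368), EPHX1 by -0.74 (0.0224), FAAH by -0.73 (0.0131) and PTGFRN by -0.70 (0.0293).

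Leaving out single samples in turn, 12 times, lost the call of TBXAS1 10 times, that of PTGFRN 7 times and that of SMARCA4 6 times. EPHX1 lost it 2 times, without MDA-MB-231 KO replicate 2 (adjusted p = 0.0576) and without MDA-MB-468 KO replicate 2 (0.0574), and GGT5 1 time, without MDA-MB-231 KO replicate 2 (0.0504). PTGFRN also lost its call with the replicate block (0.0599), at a pseudocount of 0.1 (0.0895) and with quantile normalization (0.0685), and TBXAS1 at a pseudocount of 0.1 (0.0682). PTGFRN averaged under 1 FPKM in MDA-MB-231, so it was in the table through MDA-MB-468. Its difference thus rests in part on values near the floor of the table. That of FAAH, at 2.51 FPKM or less in MDA-MB-231, does so too. ACSL4, PLA2G6, FAAH, AKR1B1, AKR1C3, GSTM3, ABCC4 and PPARG kept their calls in all 12.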

How the results depend on the processing

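Of the prostaglandin synthesis genes, 0, 0, 0 and 1 were called in the comparisons of MDA-MB-468, MDA-MB-231, the difference of changes and WT under every setting tried. PTGS1 in MDA-MB-468 ranged from -2.15 to -1.84 over the other settings, and in MDA-MB-231 its adjusted p ranged from 0.0766 to 0.550. Directions reversed for genes near 0: PTGR1 in MDA-MB-468 was -0.12 without WT replicate 3, -0.06 without KO replicate 1 and -0.03 without KO replicate 2, within a range of -0.12 to 0.20. The difference of changes of PTGES was 0.16 without MDA-MB-231 WT replicate 1, and 0.05 without MDA-MB-468 WT replicate 1 and without MDA-MB-231 KO replicate 1, within -0.17 to 0.16. The WT difference of PTGES was 0.029 without MDA-MB-231 WT replicate 3, within -0.31 to 0.029. The causes were not tested.

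Blocks by the number after the letter p in the descriptions put the unmatched WT replicate 3 and KO replicate 1 of MDA-MB-468 in 1 block. With them, 0 of the 35 further genes were called in that line (0 over all genes). The count called in MDA-MB-468 was otherwise 6, 2 at a fold limit of 1, 4 with the replicate block and 0 to 9 without single samples. In MDA-MB-231 it was 2, 4 with the filter at a mean log2 value of 2, 4 with 75th percentile scaling, 4 in 1 fit of all samples, and 0 at a fold limit of 1 and with the replicate block, where 0 of all genes were called and ACSL4 and PPARG had an adjusted p of 0.0707 and SMARCA4 of 0.0520. Replicate numbers did not pair the MDA-MB-231 samples. Over all genes, the count of 247 in MDA-MB-468 became 537 in 1 fit of all samples and 53 at a fold limit of 1, and the 426 in MDA-MB-231 became 85 at a fold limit of 1, 99 without KO replicate 2, 173 without KO replicate 1 and 264 to 311 without other single samples; the 1699 of the difference of changes became 924 to 1897. Scaling to the 75th percentile moved the share of upward calls in the difference of changes from 53.7% to 41.6%. No block was fitted to the WT comparison, which lies between lines. Each group has 3 samples, and low FPKM, as of PTGS1 in MDA-MB-231, limit what could be detected.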
